A study of Caenorhabditis elegans with 16 samples.

Results

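Expression is described for 7 *Caenorhabditis elegans* genes, *nhr-49*, *nhr-80*, *nhr-66*, *nhr-13*, *mdt-15*, *sbp-1* and *acs-2*, which were taken by symbol from the 46726 genes in the count tables. They were chosen as the nuclear receptor NHR-49, its partner receptors, 2 further regulators of lipid genes and 1 target gene. No rule on measured values was used, but earlier results of these data were known. RNA sequencing covered 16 samples, 2 for each of 8 groups. The groups were made of wild-type (Bristol N2) worms and worms carrying *tm1978*, a deletion allele of *hlh-30* termed *hlh-30(lf)*, all at the first larval stage (L1). HLH-30 is the worm ortholog of TFEB, a transcription factor for lysosome and autophagy genes. Worms of each genotype were fed on *E. coli* OP50 dishes and collected 18 hours after the eggs were placed there, starved for 33 hours in M9 salt solution, or starved in this way and then kept for 3 or 15 hours in CeMM, a chemically defined maintenance medium. No group was starved for a further 3 or 15 hours, so the effects of CeMM and of added time cannot be told apart, and fed and starved worms also differed in age and culture. Each sample was a pool of whole worms. The study states for its experiments in general that biological replicates were run at separate times, each with its controls. The p-values rest on the spread between the 2 samples of each group. For each gene this spread was estimated jointly over all 8 groups, not from the compared groups alone. It was also drawn toward the spread of the other genes in the fit, so a p-value does not rest on the gene's own samples alone. In whole worms, fewer cells of a type and less RNA per cell cannot be told apart.

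NHR-49 is a nuclear hormone receptor that resembles mammalian HNF4 in sequence and PPARα in function, and it activates genes of fatty acid oxidation and desaturation. It acts with partner receptors. NHR-80 and NHR-13 are partners for fatty acid desaturase genes and NHR-66 is a partner for other lipid genes. MDT-15 is a subunit of Mediator, the complex that links transcription factors to RNA polymerase II, and serves as a coactivator of NHR-49 and of SBP-1, the worm SREBP, which drives fatty acid synthesis. *acs-2* encodes an acyl-CoA synthetase, which joins fatty acids to coenzyme A for mitochondrial oxidation, and is a widely used reporter gene of NHR-49 activity.

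Library totals were 29205691 to 40955529 counts, at which 3 counts correspond to 0.0733 to 0.103 CPM, that is counts per 1000000 counts of the library. Levels are given as normalized CPM, for which the library total was first multiplied by its TMM factor, which sets aside differences in RNA composition. A gene was called when its adjusted p in edgeR's quasi-likelihood test was at most 0.05 over the 30177 genes tested, and log2 fold changes are given with their standard errors (SE). Percentages of all genes called count both directions. They are taken over all genes tested, many of which had few counts, and were not matched to the listed genes by level. Wild-type CeMM 15 h replicate 2 stood apart, with 12.9% of its counts on rRNA genes against at most 4.79% in the others and a TMM factor of 0.80. Transcripts of *vit* genes, which encode adult yolk proteins, summed to at least 10.1 normalized CPM in replicate 1 of wild-type starved, CeMM 3 h and CeMM 15 h worms and to at most 3.68 elsewhere. The counts of the replicates differed with a chi-square per degree of freedom of 176.8 in wild-type CeMM 15 h worms, 52.7 in starved *hlh-30(lf)* and 2.58 to 14.5 in the others. *hlh-30* itself stood at 433 and 381 normalized CPM in fed *hlh-30(lf)* and at 643 and 690 in fed wild type, but at 747 and 716 in starved *hlh-30(lf)* and at 662 and 619 in starved wild type. After 3 hours of CeMM it stood at 470 and 488 in *hlh-30(lf)* and at 680 and 744 in wild type. After 15 hours it stood at 385 and 370 in *hlh-30(lf)* and at 691 and 528 in wild type. Counts over the whole gene do not resolve a deletion of exons, so they do not check this label, and *hlh-30(lf)* here means the libraries labelled so.

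*acs-2* (WBGene00009221; WBcel235 chromosome V, 15567394 to 15569889, plus strand, 6 exons) had by far the widest range of the 7 genes. In wild type, it stood at 3.98 and 6.08 normalized CPM in fed worms, at a mean of 1.94 ± 0.626 (SD, n = 2) in starved worms, at 150 and 158 after 3 hours of CeMM, and at 1060 and 955 after 15 hours. The refed samples lay far above all others and did not overlap. *acs-2* rose 78.8-fold between starvation and 3 hours of CeMM (log2 fold change 6.30, SE 0.53, edgeR adjusted p = 1.49e-05) and 517-fold by 15 hours (9.01, SE 0.57, adjusted p = 2.31e-06). The step from 3 to 15 hours was 6.56-fold (2.71, SE 0.40, adjusted p = 0.00188). This last step was no longer called without the 3 wild-type libraries that held yolk transcripts, which left 1 sample a group, although its size was 2.60. The level at 15 hours was 200-fold above that of fed worms (7.65, SE 0.53, adjusted p = 3.20e-06). Starved worms lay below fed worms without passing the test (-1.37, SE 0.58, adjusted p = 0.101).

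In *hlh-30(lf)*, *acs-2* stayed low in every state. It stood at 2.19 and 2.40 normalized CPM in fed worms, at 1.32 and 0.889 in starved worms, at 1.02 and 1.16 after 3 hours of CeMM, and at 5.69 and 1.25 after 15 hours. None of the 5 comparisons between states passed the edgeR test in this genotype, with 2 at an unadjusted p under 0.05, and DESeq2 called 2, those of 15 hours with starvation and with 3 hours. Only replicate 1 at 15 hours, with 186 counts against 48 in replicate 2, reached the range of fed wild type. Of 4 markers of the hypodermis, *dpy-7* (13.7 against 0.234 normalized CPM), *dpy-8* (15.7 against 1.87) and *rol-6* (4.35 against 0.312) were also higher in replicate 1. The remaining marker, *elt-3*, was at 101 and 96.2. How this difference between the 2 samples bears on *acs-2* was not tested. Without replicate 2, the difference of 15 hours from starvation was 2.40 on the log2 scale and was called, while without replicate 1 it was 0.23 and was not. The 8 group means therefore ordered as wild type CeMM 15 h (1010 ± 74.6, SD, n = 2), wild type CeMM 3 h (154 ± 5.54), and then 6 groups between 5.03 ± 1.48 in fed wild type and 1.09 ± 0.11 in *hlh-30(lf)* at 3 hours. Among those 6, no tested pair passed the edgeR test.

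Genotypes were then compared within each state. *acs-2* in *hlh-30(lf)* was 141-fold below wild type after 3 hours of CeMM (-7.14, SE 0.57, adjusted p = 7.40e-06) and 299-fold below it after 15 hours (-8.22, SE 0.54, adjusted p = 4.01e-06). In fed and starved worms the *hlh-30(lf)* samples also lay below both wild-type samples, and neither difference passed the test (-1.14, SE 0.57, adjusted p = 0.533, and -0.83, SE 0.72, adjusted p = 0.475). The change from starvation to CeMM differed between the genotypes, by -6.30 at 3 hours (SE 1.02, adjusted p = 0.00194) and by -7.39 at 15 hours (SE 1.02, adjusted p = 0.000638). The change from fed to starved did not differ detectably (0.30, SE 0.93). Summed transcripts of 7 markers of the intestine, the main site of fat metabolism in the worm, were at 2090 to 2220 normalized CPM in wild type and 2370 to 2460 in *hlh-30(lf)* at 15 hours. In both *hlh-30(lf)* samples *act-5*, *elt-2*, *pept-1* and *vha-6* were above and *elt-7*, *ges-1* and *ifb-2* below wild type at that time, with *ges-1* at 22.9 and 16.4 against 95.5 and 85.5. At 3 hours the sums were 2720 to 3120 and 1360 to 1390, and in starved worms 3020 to 3500 and 1070 to 1090, with all 7 markers detected. At 3 hours 6 of them lay below wild type and *elt-2*, which encodes the intestinal GATA factor, above it (64.7 and 63.8 against 35.8 and 33.8), and in starved worms 5 lay below and *elt-2* and *act-5* above. The part of these marker differences in the results was not tested.

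**Figure D1:**
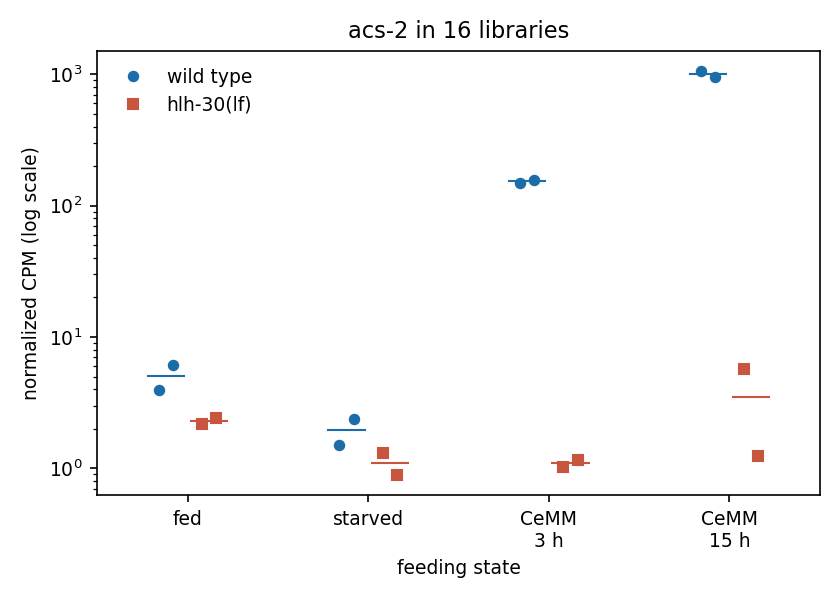
Normalized CPM of *acs-2* in each library (points, log axis) by feeding state, with group means as short lines. Wild type rose to 150 and 158 at 3 hours of CeMM and to 1060 and 955 at 15 hours, while all 8 *hlh-30(lf)* libraries stayed between 0.889 and 5.69.

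The other acyl-CoA synthetase genes did not share one pattern. Among the 22 genes of the family, *acs-2* ranked 17th per kb of exon in fed wild type and 18th in starved wild type. It ranked 7th after 3 hours of CeMM and 1st after 15 hours, with 486 normalized CPM per kb against a family median of 21.5. In *hlh-30(lf)* it ranked between 16th and 18th in all 4 states. Of the 21 other genes, 10 exceeded and 4 lay below their starved level in wild-type worms kept 15 hours in CeMM, beside 29.2% of all genes called, at a median log2 fold change of 0.089 and 0 over all genes tested. *acs-19* (2.92, from 74.2 to 561 normalized CPM) and *acs-7* (2.34, from 9.19 to 46.5) had the largest called rises of these. Between genotypes at 15 hours, *hlh-30(lf)* was higher for 5 of 21 and lower for 6, beside 24% of all genes called. *acs-3* in *hlh-30(lf)* lay below wild type in starvation (0.460 against 8.31), at 3 hours (0.787 against 10.7) and at 15 hours (2.77 against 26.5), with log2 differences of -4.16, -3.76 and -3.26. In contrast, *acs-4* was higher in *hlh-30(lf)* in the same 3 states, with 700 against 131 normalized CPM in starvation.

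**Figure D2:**
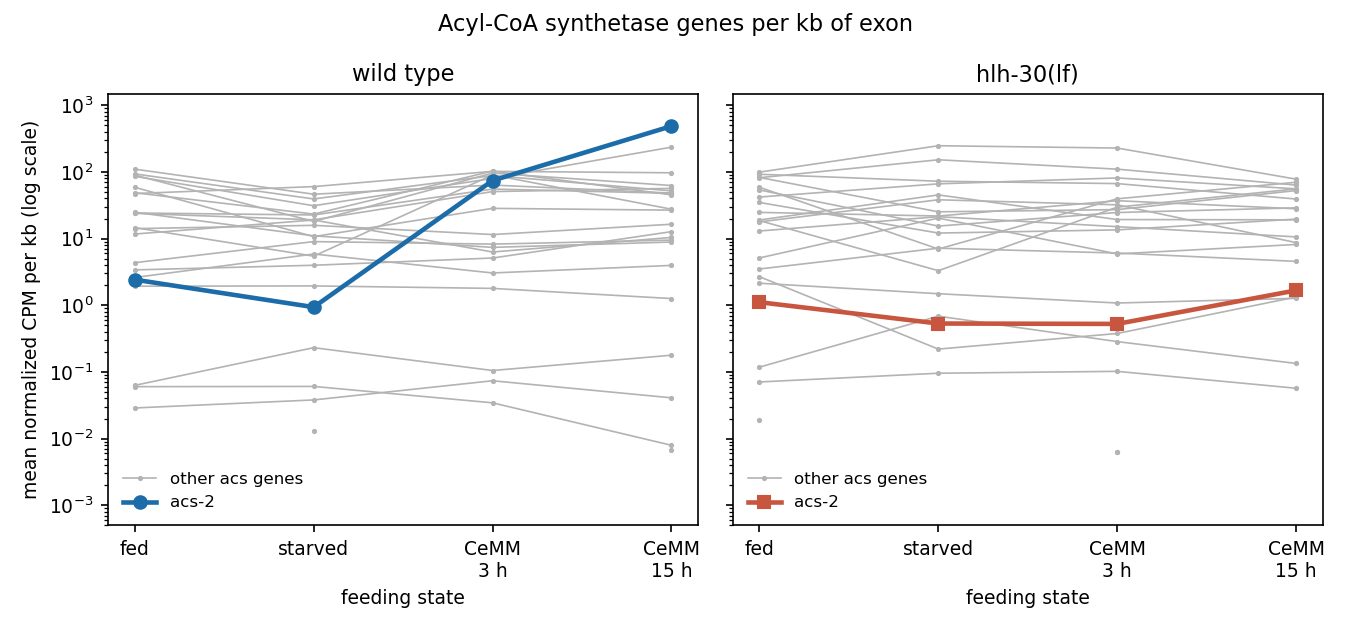
Mean normalized CPM per kb of exon (log axis) of *acs-2* (thick line) and 21 other acyl-CoA synthetase genes (grey) by feeding state, in wild type (left) and *hlh-30(lf)* (right); group means of 0 are not drawn. *acs-2* moved from 17th of 22 in fed wild type to 1st at 15 hours of CeMM and stayed between 16th and 18th in *hlh-30(lf)*.

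Another 8 genes known from other work to depend on NHR-49 were read from the same fit. Like all gene lists here, this one was chosen with earlier results of these data known, so its counts are descriptive. In wild type, 7 of them stood above and 1 below the starved level at 3 hours of CeMM, with a median of 4.44 on the log2 scale, where 30.1% of all genes were called and their median was 0. Among the 7, *fat-7* (9 and 2 counts in starved, 23 and 16 at 3 hours) and *ech-1.1* (28 and 34, then 77 and 55) rest on few reads. In *hlh-30(lf)*, 3 of 8 were higher and 5 not called, with a median of 0.62, beside 16.4% of all genes. At 15 hours, wild type had 5 genes up and 1 down (median 5.08, beside 29.2% of all genes), and *hlh-30(lf)* had 3 up and 1 down (median 0.66, beside 30.8% of all genes).

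The gene *fmo-2*, which encodes a flavin-containing monooxygenase, stood at 2.13 and 2.64 normalized CPM in starved wild type, at 154 and 100 after 3 hours of CeMM and at 96.6 and 108 after 15 hours. In *hlh-30(lf)* it stayed between 0.208 and 0.989 in all 8 libraries. The genotypes differed by -7.16 at 3 hours (SE 0.34, adjusted p = 8.15e-08) and -8.49 at 15 hours (SE 0.40, adjusted p = 1.64e-07). *hacd-1*, a hydroxyacyl-CoA dehydrogenase gene, resembled *acs-2* in that it was higher at 15 hours (236 and 227) than at 3 hours (44.0 and 33.6) in wild type. In *hlh-30(lf)* it rose from a mean of 3.02 in starvation only to 6.81 and 6.01 at 3 hours. *icl-1*, which encodes the glyoxylate cycle enzyme that lets fatty acid carbon enter sugar synthesis, rose in wild type from 44.0 and 81.2 to 4500 and 3840 at 15 hours. It stood at a mean of 118 in starved and at 308 and 198 in refed *hlh-30(lf)*, which did not pass the test.

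*fat-5* and *cpt-5* rose with CeMM in both genotypes. *fat-5*, a palmitoyl-CoA desaturase gene, went from 0.737 and 0.694 in starved wild type to 202 and 203 at 3 hours, and from 1.56 and 1.12 to 21.3 and 24.4 in *hlh-30(lf)*. The rise at 3 hours was smaller in *hlh-30(lf)* by 4.04 on the log2 scale (interaction -4.04, SE 0.33, adjusted p = 1.27e-07). *cpt-5*, a carnitine palmitoyltransferase gene, reached 61.0 and 58.2 in wild type but 4.31 and 4.30 in *hlh-30(lf)* at 3 hours. By 15 hours the genotypes overlapped, with 28.5 and 21.5 in wild type and 23.8 and 18.7 in *hlh-30(lf)*.

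The stearoyl-CoA desaturase genes *fat-6* and *fat-7* followed other courses. They are close paralogs, and reads that fit both were set aside by the counting of uniquely aligned reads, so their levels are uncertain. *fat-6* was at 317 and 440 normalized CPM in wild type and at 69.2 and 55.9 in *hlh-30(lf)* after 15 hours of CeMM (-2.60, SE 0.18, adjusted p = 6.88e-07). *fat-7* was at most 3.67 normalized CPM in any library, and *ech-1.1*, which encodes an enzyme of fatty acid oxidation, at most 2.59. In *hlh-30(lf)* both lay below wild type already in fed worms (-1.92 and -1.19), and *fat-5* was higher there (0.90), beside 4.42% of all genes called between fed genotypes. After CeMM, 7 of the 8 genes were lower in *hlh-30(lf)* at 3 hours (median -2.87, beside 36.2% of all genes) and 5 at 15 hours (median -2.53, beside 24% of all genes).

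**Figure D3:**
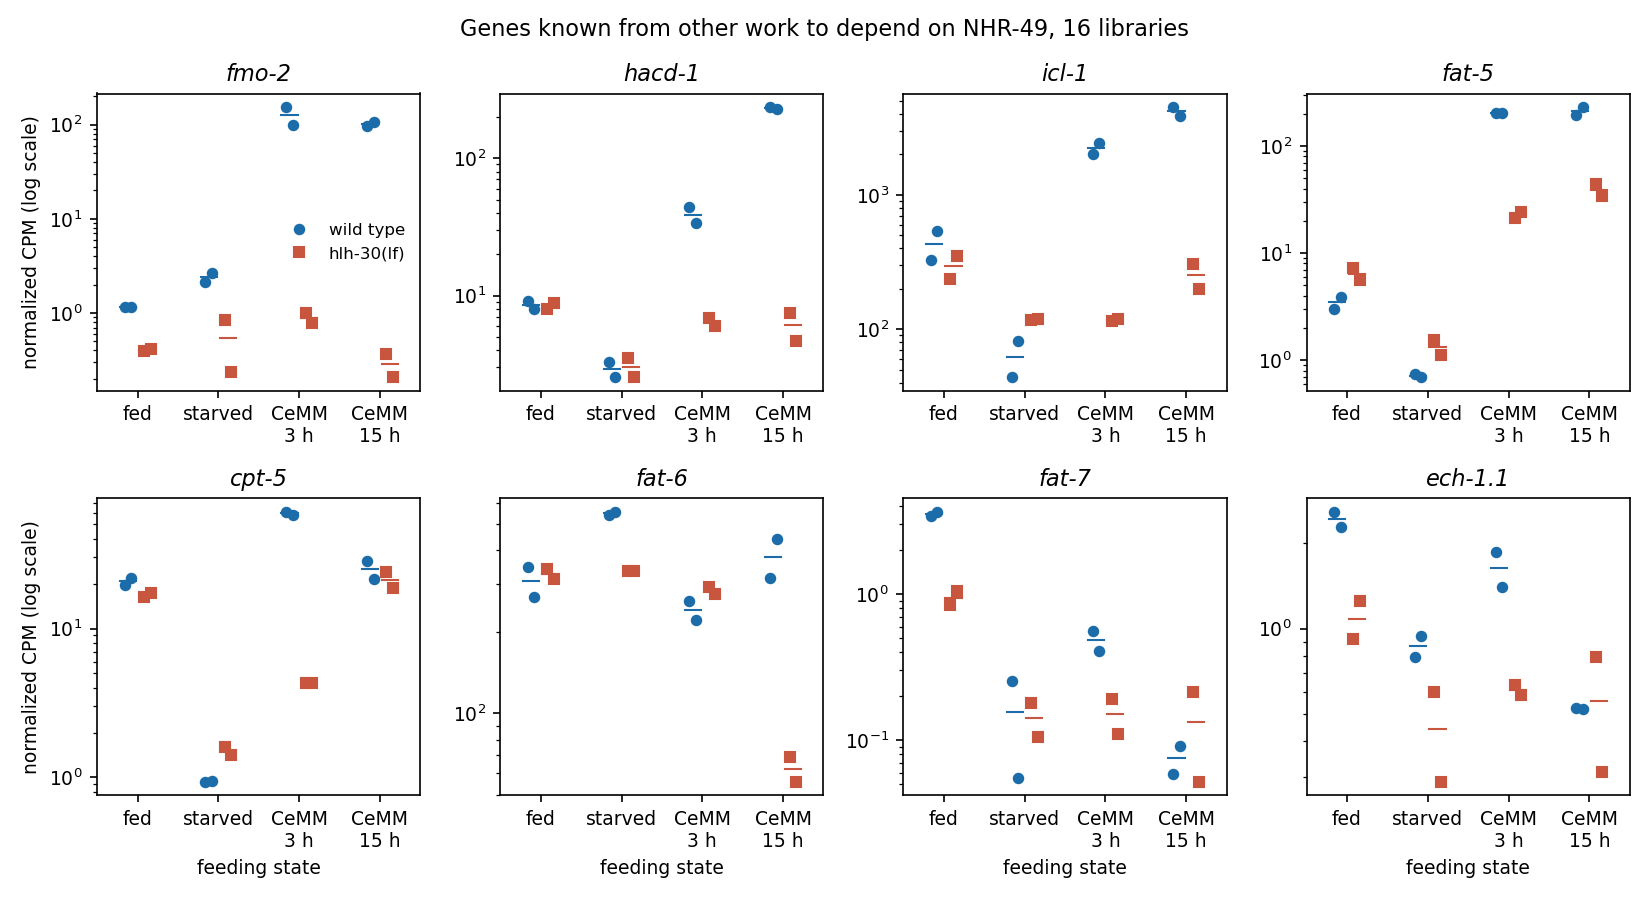
Normalized CPM in each library (points, log axes that differ between panels) of 8 genes known from other work to depend on NHR-49, by feeding state, with group means as short lines. *fmo-2*, *hacd-1* and *icl-1* separate the genotypes after CeMM, with a small rise of *hacd-1* in *hlh-30(lf)* as well. *fat-5* and *cpt-5* rise in both, and *fat-6* is lower in *hlh-30(lf)* at 15 hours.

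The transcripts of the regulators varied far less than those of *acs-2*. No regulator differed by more than 1 log2 unit between the genotypes in any state. The count of members called between fed genotypes was 0 of 7 with edgeR, beside 4.42% of all genes called, with 0 at an unadjusted p under 0.05 (lowest 0.0789). It was 0 with DESeq2, 0 with limma-voom and 1 (*acs-2*) with edgeR's older method. In starved worms *hlh-30(lf)* was higher for 2 members and lower for 3, beside 38.1% of all genes called. After CeMM, 1 was higher and 3 lower both at 3 hours, beside 36.2% of all genes, and at 15 hours, beside 24%.

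*nhr-49* (WBGene00003639; chromosome I, 9869663 to 9874676, plus strand, 7 exons) was among the most abundant nuclear receptor transcripts, ranking 2nd to 5th of 269 *nhr* genes per kb in all 8 groups. It stood at 178 and 195 normalized CPM in fed and at 254 and 268 in starved wild type, and at 181 and 186 in fed and 332 and 331 in starved *hlh-30(lf)*. The groups did not overlap with starvation in either genotype. *nhr-49* rose with starvation by 0.48 in wild type (SE 0.08, adjusted p = 6.39e-06) and by 0.85 in *hlh-30(lf)* (SE 0.08, adjusted p = 3.39e-10). The rise was larger in *hlh-30(lf)* by 0.37 (SE 0.11, adjusted p = 0.0103), a difference no longer called without *hlh-30(lf)* fed replicate 1 (0.34) or wild-type fed replicate 2 (0.31). *nhr-49* in starved *hlh-30(lf)* was above its wild-type level (0.35, SE 0.08, adjusted p = 0.00049). It was also higher at 3 hours of CeMM, with 344 and 347 against 274 and 286 (0.30, SE 0.08, adjusted p = 0.00221). At 15 hours the levels were 280 and 275 in *hlh-30(lf)* and 252 and 254 in wild type, which did not pass the test. After CeMM, the *hlh-30(lf)* samples lay above the wild-type ones for *nhr-49*, by a difference called at 3 hours only, and below them for *acs-2*. How the levels of *nhr-49* and *acs-2* are related was not tested. Of 262 other *nhr* genes tested, wild-type starvation gave 96 higher and 74 lower than the fed state (median 0.036 on the log2 scale), beside 40.2% of all genes called.

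*nhr-80* (WBGene00003670; chromosome III, 12166 to 14801, minus strand, 6 exons) gave the closest values in the 2 genotypes. It stood at 23.5 and 23.4 normalized CPM in fed, 37.4 and 33.6 in starved, 40.6 and 41.2 in CeMM 3 h and 29.7 and 28.1 in CeMM 15 h wild type. The corresponding *hlh-30(lf)* values were 23.0 and 23.8, 41.9 and 40.5, 41.2 and 40.8, and a mean of 28.0 ± 1.47 (SD, n = 2). No state gave a called difference between genotypes with edgeR, with 1 at an unadjusted p under 0.05, that of starved worms, which limma-voom called. The samples of the genotypes overlapped in all states but starvation. *nhr-80* rose with starvation by 0.60 (SE 0.09, adjusted p = 3.06e-06) in wild type and by 0.82 (SE 0.09, adjusted p = 1.54e-08) in *hlh-30(lf)*. Between 3 and 15 hours of CeMM it fell by 0.50 (SE 0.09, adjusted p = 0.000158) and by 0.55 (SE 0.09, adjusted p = 1.72e-05).

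*nhr-13* (WBGene00003612; chromosome V, 2192497 to 2196826, plus strand, 10 exons) was the least abundant of the 4 receptors, at 3.80 to 9.79 normalized CPM per kb over the group means. In wild type, it stood at 8.10 and 7.49 normalized CPM in starvation and 13.7 and 13.3 after 3 hours of CeMM. In *hlh-30(lf)*, it stood at 5.54 and 5.15 in starvation and 13.8 and 13.7 after 3 hours. The genotypes thus met at 3 hours from different starved levels. *nhr-13* rose by 0.79 in wild type (SE 0.11, adjusted p = 1.59e-06) and by 1.36 in *hlh-30(lf)* (SE 0.12, adjusted p = 7.59e-10), and the rise differed by 0.57 (SE 0.16, adjusted p = 0.0089). That difference in rise was 0.54 and no longer called without the 3 wild-type libraries with yolk transcripts. Of the 4 states, the starved one gave a called genotype difference, with *nhr-13* lower in *hlh-30(lf)* (-0.55, SE 0.12, adjusted p = 0.000461).

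*nhr-66* (WBGene00003656; chromosome IV, 8226341 to 8236602, minus strand, 12 exons) overlaps *serp-1.2* on the other strand, and the strand setting of the counting was not given in the sources used here. *serp-1.2* was at 83.8 and 81.0 normalized CPM in starved wild type and at 7.01 to 40.6 elsewhere, and its part in the *nhr-66* counts was not tested. *nhr-66* stood at 60.6 and 64.8 normalized CPM in starved and 98.3 and 87.8 in CeMM 3 h wild type, and the rise passed the test (0.57, SE 0.10, adjusted p = 1.94e-05). In *hlh-30(lf)* the starved samples, at 72.2 and 90.5, were farther apart, and the CeMM 3 h samples were at 95.0 and 92.3. At 15 hours *nhr-66* was higher in *hlh-30(lf)*, at 102 and 107 against 78.2 and 78.5 in wild type (0.41, SE 0.10, adjusted p = 0.00133). It was also called higher in starved *hlh-30(lf)* (0.38, SE 0.10, adjusted p = 0.00188), but the difference was 0.20 and not called without *hlh-30(lf)* starved replicate 2.

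**Figure D4:**
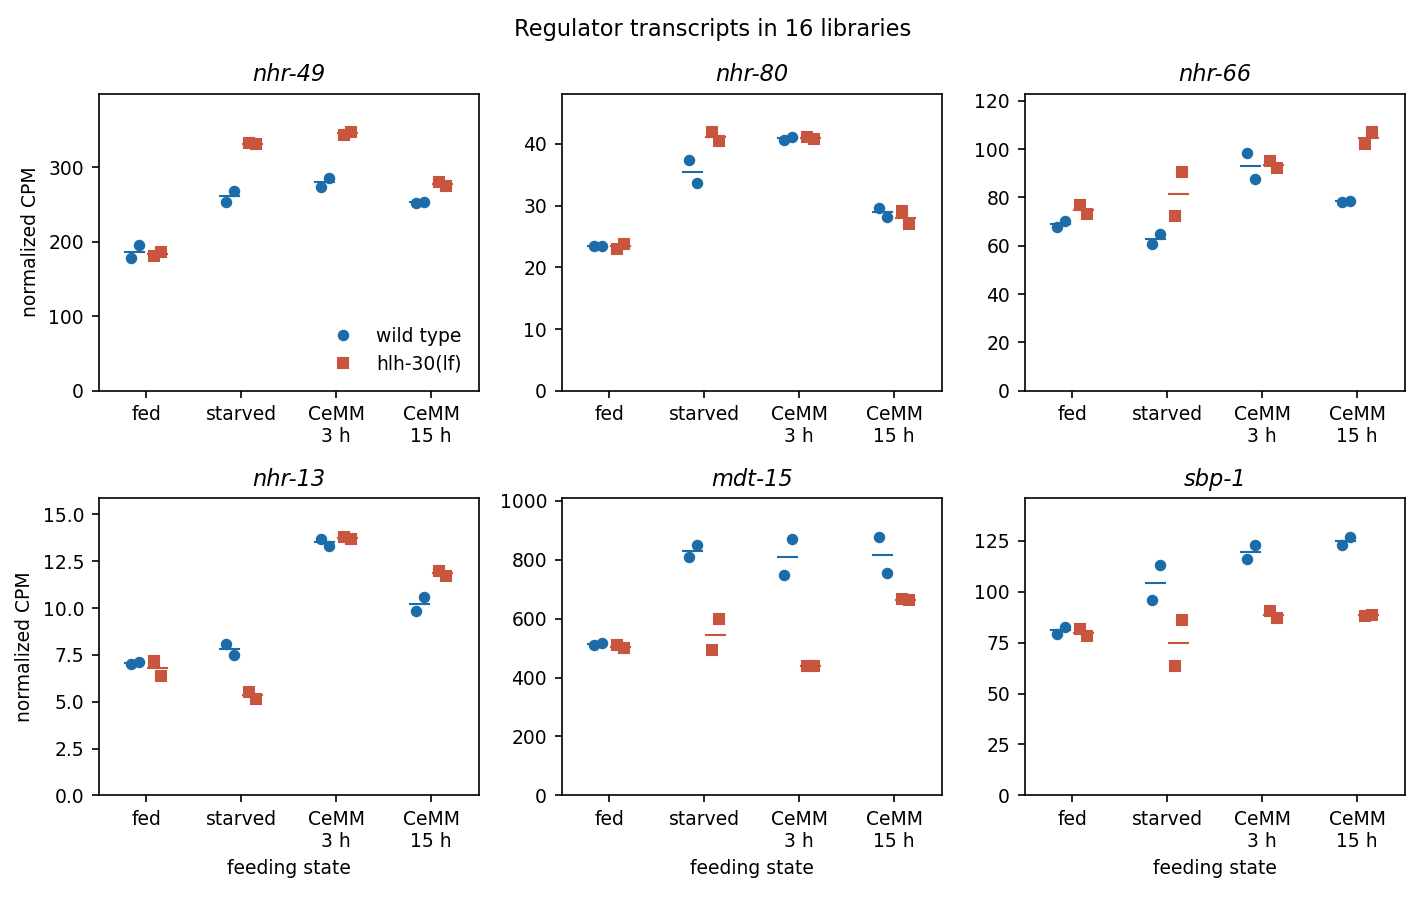
Normalized CPM of the 6 regulators in each library (points, linear axes from 0 that differ between panels) by feeding state, with group means as short lines. No called genotype difference was found in fed worms for any of the 6 genes, and *mdt-15* and *sbp-1* are lower in *hlh-30(lf)* from starvation onward.

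*mdt-15* (WBGene00007016; chromosome III, 5828603 to 5833745, minus strand, 7 exons) was, with *nhr-49*, the most abundant regulator per kb of exon, with group means of 104 to 196 normalized CPM per kb against 85.5 to 161 for *nhr-49*, 22.4 to 37.3 for *nhr-66*, 21.9 to 36.5 for *sbp-1* and 14.8 to 26.0 for *nhr-80*. It stood at 512 and 519 normalized CPM in fed and 810 and 849 in starved wild type, and at 509 and 499 in fed and 492 and 598 in starved *hlh-30(lf)*. Starvation separated the wild-type groups, while the *hlh-30(lf)* groups overlapped. *mdt-15* rose with starvation in wild type (0.69, SE 0.09, adjusted p = 5.14e-07), and its change with starvation differed between genotypes by -0.57 (SE 0.13, adjusted p = 0.00106). After 3 hours of CeMM it stood at 748 and 872 in wild type and at 439 and 440 in *hlh-30(lf)*. The genotype difference was -0.61 in starvation (SE 0.09, adjusted p = 3.99e-06) and -0.88 at 3 hours (SE 0.09, adjusted p = 7.55e-09). In *hlh-30(lf)*, *mdt-15* rose between 3 and 15 hours of CeMM to 667 and 663 (0.60, SE 0.09, adjusted p = 8.86e-06). The remaining difference at 15 hours was -0.30 (SE 0.09, adjusted p = 0.018). It was -0.18 and not called without wild-type CeMM 15 h replicate 1, and -0.03 and not called when libraries were scaled by their totals alone. It was not called either without any 1 of the *hlh-30(lf)* replicates of the fed, CeMM 3 h and CeMM 15 h groups or of the wild-type fed replicates, at -0.28 or -0.29.

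Of 25 other subunit genes, starved wild type was higher than fed wild type for 6 and lower for 7 (median -0.058 on the log2 scale), beside 40.2% of all genes called. At the 3-hour point of CeMM, *hlh-30(lf)* was above wild type for 5 and below it for 2 (median -0.0016), beside 36.2% of all genes called. The change with starvation, as *hlh-30(lf)* minus wild type, was higher for 4 of the 25 and lower for 4 (median 0.09), beside 27.7% of all genes called. The list thus had no common direction. Among its genes, *dpy-22* and *let-19*, which encode the MED12 and MED13 subunits, rose with starvation in wild type. They did not pass the test in *hlh-30(lf)*, as was the case for *mdt-15*. *dpy-22* went from a mean of 289 to 596 normalized CPM in wild type and from 293 to 313 in *hlh-30(lf)* (interaction -0.95, SE 0.21, adjusted p = 0.00448). *let-19*, which was chosen after its values were seen, went from 362 to 571 and from 383 to 397 (interaction -0.61, SE 0.17, adjusted p = 0.0142). *mdt-17* had the lowest called genotype difference at 3 hours, with 25.4 normalized CPM in *hlh-30(lf)* and 40.7 in wild type (-0.68, SE 0.10, adjusted p = 1.52e-06).

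*sbp-1* (WBGene00004735; chromosome III, 11428341 to 11442566, minus strand, 13 exons) was lower in *hlh-30(lf)* in the starved state and at both times in CeMM. In wild type, it stood at 79.1 and 82.9 normalized CPM in fed, 96.0 and 113 in starved, 116 and 123 in CeMM 3 h and 123 and 127 in CeMM 15 h worms. In *hlh-30(lf)*, the values were 81.5 and 78.2, 63.4 and 86.1, 90.4 and 87.0, and 88.2 and 88.8. No *hlh-30(lf)* sample overlapped wild type after the fed state. The genotype differences were -0.48 in starvation (SE 0.11, adjusted p = 0.000538), -0.43 at 3 hours (SE 0.11, adjusted p = 0.00163) and -0.50 at 15 hours (SE 0.11, adjusted p = 0.0007). The first was -0.25, and still called, without *hlh-30(lf)* starved replicate 1, and was not called when the 2 starved groups were fitted alone. The second was -0.38 and not called without *hlh-30(lf)* CeMM 3 h replicate 2, and the third was -0.22 and not called when libraries were scaled by their totals alone. *sbp-1* was higher in wild-type worms at 15 hours of CeMM than in fed ones (0.63, SE 0.11, adjusted p = 3.01e-05), whereas the *hlh-30(lf)* difference did not pass the test. *sbp-1* overlaps *idpc-1* on the other strand, which stood at 50.4 to 103 normalized CPM in fed and at 0.831 to 20.4 in other libraries, and its part in these counts was not tested.

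**Figure D5:**
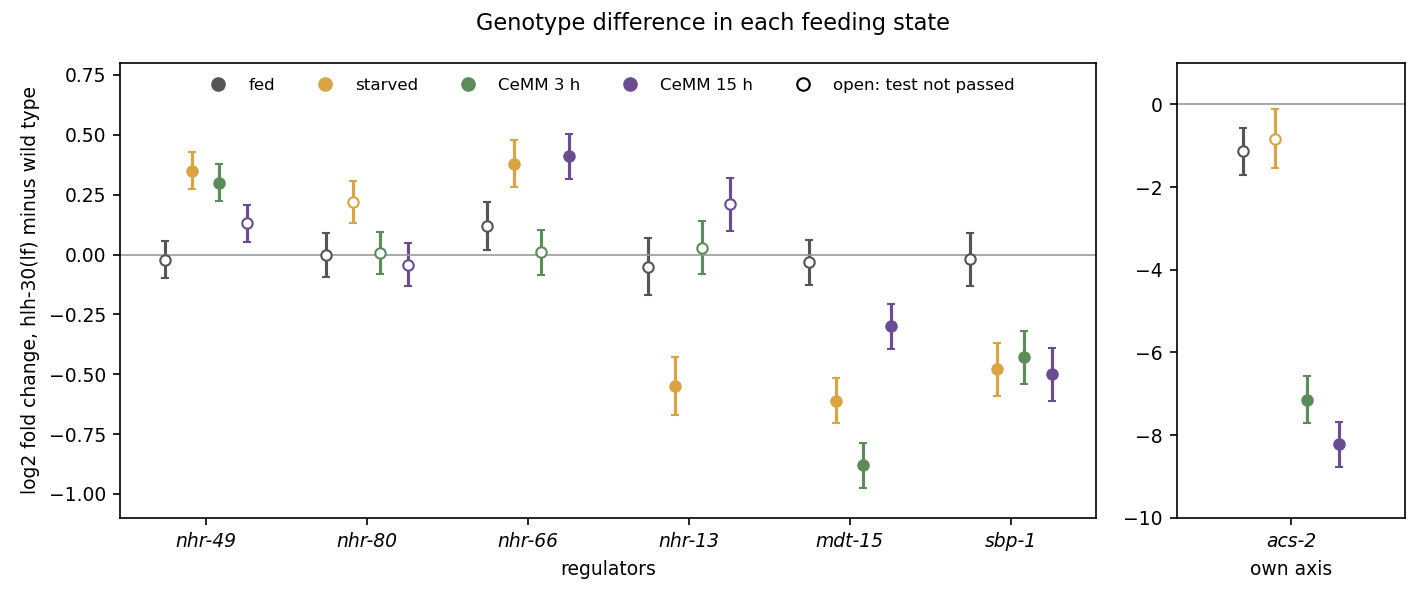
Log2 fold change of *hlh-30(lf)* over wild type in each feeding state, with bars of 1 standard error, for 6 regulators (left) and *acs-2* (right, own axis); open points did not pass the test. The regulators lie between -0.88 and 0.41, and *acs-2* at -7.14 and -8.22 after CeMM.

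Fatty acid synthesis, which SBP-1 is known to drive, was read from 8 genes, 7 for its enzymes and *scp-1* for the homolog of SCAP, the protein that escorts SREBP. All 7 enzyme genes were lower and *scp-1* was higher in starved than in fed wild type (median -1.93, beside 40.2% of all genes called). In *hlh-30(lf)*, 4 enzyme genes were lower and *scp-1* was higher (median -0.20, beside 37.6% of all genes called). *fasn-1*, the fatty acid synthase gene, stood at 2070 and 2000 normalized CPM in fed and 207 and 217 in starved wild type, but at 1630 and 1430 in fed and 1140 and 1920 in starved *hlh-30(lf)*. Its change with starvation differed between genotypes by 3.26 (SE 0.29, adjusted p = 1.43e-05). In starved worms *hlh-30(lf)* exceeded wild type for 6 of the 8, all of them enzyme genes (median 1.29, beside 38.1% of all genes called), among them the elongase genes *elo-5* (2.82) and *elo-2* (1.77) and the acetyl-CoA carboxylase gene *pod-2* (0.80). At 15 hours of CeMM 6 were lower in *hlh-30(lf)*, *scp-1* included (median -0.46, beside 24% of all genes), *elo-6* among them with 73.8 and 74.0 against 226 and 232 normalized CPM. The change from starvation to CeMM was lower in *hlh-30(lf)* for all 8 genes at both times, with median differences of -1.33 at 3 hours (21.8% of all genes called) and -1.62 at 15 hours (22.4%).

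Within wild type, 4 of the 7 members rose with starvation (*nhr-49*, *nhr-80*, *mdt-15* and *sbp-1*), beside 40.2% of all genes called. The call on *sbp-1* (0.37, SE 0.11, adjusted p = 0.00628) was lost without wild-type starved replicate 2 (0.24) or either fed replicate (0.31 and 0.37). From starvation to CeMM, 3 members were higher at 3 hours (30.1% of all genes called) and 3 higher and 1 lower at 15 hours (29.2%). Between 3 and 15 hours 1 was higher and 2 lower, beside 15% of all genes, and at 15 hours 6 were higher than in fed worms, beside 33.5% of all genes. In *hlh-30(lf)*, *nhr-49* and *nhr-80* rose with starvation and *nhr-13* fell, the last by a difference that was lost without fed replicate 1 or starved replicate 2. From starvation to CeMM 1 member was higher and 1 lower at 3 hours (16.4% of all genes), and 3 were higher and 2 lower at 15 hours (30.8%). Between 3 and 15 hours 1 was higher and 2 lower, beside 27.4% of all genes, and at 15 hours 5 were higher than in fed worms, beside 29.2% of all genes. The change with starvation differed between genotypes for 4 members (27.7% of all genes). That with CeMM differed for *nhr-13* and *acs-2* at both times (21.8% of all genes at 3 hours and 22.4% at 15 hours).

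Genes whose levels followed each member most closely were ranked by Pearson's r of log2 CPM over the 16 samples, over the 8593 genes that averaged 10 CPM or more. The values are descriptive, since the samples share 8 groups. F21C10.10 was closest to *acs-2* (r = 0.98), with 10.3 normalized CPM in starved wild type, 735 at 15 hours of CeMM and 16.3 in *hlh-30(lf)* at 15 hours. It was followed by *hacd-1* (0.96), *pkg-2*, a cGMP-dependent protein kinase gene (0.95), and *adh-1*, an alcohol dehydrogenase gene (0.95). *adh-1* had 4040 normalized CPM in wild type and 33.3 in *hlh-30(lf)* at 15 hours. The closest gene to *nhr-49* was *ain-2* (0.96), to *nhr-80* F13B12.6 (0.94), to *nhr-66* *pmp-4* (0.95) and to *nhr-13* *decr-1.1* (0.96). For *mdt-15* it was *nhr-48* (0.96) and for *sbp-1* F59E12.6 (0.93). Among the members themselves, *nhr-49* and *nhr-80* were most alike (r = 0.88).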

How the data were processed

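For each of 16 samples, the authors aligned single-end reads to WBcel235 with STAR 2.0.4b and counted uniquely aligned, unambiguous reads per gene with featureCounts (given as 1.45 in the submitters' processing notes). They deposited the raw count of each gene, a CPM value scaled to the sample's total count, and an RPKM value that divides the CPM by exonic length. The deposited CPM and RPKM were checked against the counts and not otherwise used.

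Counts of the 30177 genes with a count in any sample were fitted together with edgeR 4.0.16 (TMM factors, 1 coefficient per group, glmQLFit with legacy=FALSE and robust=TRUE), giving 17 comparisons, 3 of them interactions, with Benjamini-Hochberg adjustment over all genes tested and a threshold of 0.05. In a test on simulated data for the wild-type comparison of starved and fed worms, 91 of 100 genes changed by 1 log2 unit were recovered, with 5.03% false calls among all calls (17.9% with edgeR's older default), and for the interaction with starvation 74 of 100 were recovered at that size, with 4.49% false calls. Alternatives were DESeq2 1.42.0, limma-voom (limma 3.58.1, the study's method), edgeR's older default, RLE and no scaling factors, filterByExpr, rRNA genes left out, a replicate block, fits on the compared groups alone and leaving out each sample. The fits without the 3 libraries with yolk transcripts, and the crossed pairings, were chosen after seeing the data. The 7 members and all gene lists were chosen with earlier results of these data known. Genes named were the members, *hlh-30*, every gene of the NHR-49-dependent and fatty acid synthesis lists, the extremes of the *acs* and Mediator lists, and the genes closest to each member. Sequences and protein alignments were not used here.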

Additional observations from a re-analysis of the deposited data

Results flagged for a closer look

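For 8 results the change between feeding states differed between *hlh-30(lf)* and wild type by the interaction term of the edgeR fit (edgeR adjusted p), given here as *hlh-30(lf)* minus wild type on the log2 scale. For starvation against the fed state these were *nhr-49* (0.37, SE 0.11, adjusted p = 0.0103), *nhr-13* (-0.49, SE 0.17, adjusted p = 0.0289), *mdt-15* (-0.57, SE 0.13, adjusted p = 0.00106) and *sbp-1* (-0.46, SE 0.15, adjusted p = 0.0215). For 3 hours of CeMM against starvation they were *nhr-13* (0.57, SE 0.16, adjusted p = 0.0089) and *acs-2* (-6.30, SE 1.02, adjusted p = 0.00194). For 15 hours of CeMM against starvation they were *nhr-13* (0.76, SE 0.16, adjusted p = 0.000745) and *acs-2* (-7.39, SE 1.02, adjusted p = 0.000638). Of all genes, 27.7% were called for the interaction with starvation, 21.8% for that with 3 hours of CeMM and 22.4% for that with 15 hours. The interaction of *sbp-1* was -0.23 and not called without *hlh-30(lf)* starved replicate 1, and that of *nhr-13* with starvation was lost without any 1 of 5 libraries (-0.41 to -0.51): *hlh-30(lf)* fed replicate 1, *hlh-30(lf)* starved replicate 2, either wild-type fed replicate or wild-type starved replicate 1.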

How the results depend on the processing

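Of the single-member comparisons, 59 were called and 60 were not. Of those called, 37 were called under every alternative, 22 lost the call in at least 1 and 0 changed sign. Of the 60 not called, 24 were called in some alternative and 23 took the other sign in some, by at most 0.87 on the log2 scale. The *hlh-30(lf)* values of *acs-2* rest on 34 to 186 counts a library. Scaling by library totals alone shifted the all-gene median log2 fold change by up to 0.167 and a member by up to 0.281. All changes of over 10 percentage points in the share of higher calls involved wild-type CeMM 15 h: higher genes were 52.9% of calls with TMM and 36.2% without against starvation, 59.1% and 24.2% against 3 h, 49.7% and 38.6% against fed, and 48.6% and 74% for *hlh-30(lf)* against wild type. In the interaction at 15 hours they were 46.4% and 61.8%.

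The study states that replicates were in general run at separate times with their controls, but the labels do not say that a number marks 1 time across groups. Same-numbered samples deviated together in some pairs of groups and in opposite directions in others (mean correlation 0.0112, range -0.351 to 0.567 over 28 pairs of groups and 8593 genes). The mean cannot show whether runs were shared, since numbers may not match between groups. With the replicate block no member gained or lost a call in any of the 17 comparisons, and genes called moved little (12027 against 12131 for wild-type starvation, 1313 against 1335 between fed genotypes). Crossed pairings, run for 4 comparisons whose same-numbered samples deviated in opposite directions, gave 8969, 4620, 7321 and 8741 genes called against 9089, 4530, 7247 and 8813.

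With DESeq2, *acs-2* was called in *hlh-30(lf)* at 15 hours of CeMM against 3 hours (1.65) and against starvation (1.63), and in wild-type starvation against the fed state (-1.35). With edgeR's older default it was called in the genotype comparison of fed (-1.14) and starved worms (-0.83), in *hlh-30(lf)* at 15 hours against 3 hours (1.63), fed (0.56) and starvation (1.62), and for starvation in *hlh-30(lf)* (-1.06) and wild type (-1.37). That default called 2031 genes and 1 member between fed genotypes. The difference of *acs-2* between 3 hours of CeMM and starvation in *hlh-30(lf)* was near 0 and took the other sign with limma-voom (0.021), without scaling factors (0.014) and with the compared groups alone (0.02). None of these was called.

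Without scaling factors, 1 member was called for CeMM 3 h against starvation in *hlh-30(lf)*, 2 for the interaction with starvation, 5 for CeMM 15 h against 3 h and 2 for CeMM 15 h against starvation in wild type. With the compared groups alone, *acs-2* was called between fed genotypes (-1.13) and for starvation in *hlh-30(lf)* (-1.04) and wild type (-1.38), and 2754 genes were called for wild-type CeMM 15 h against 3 h. The members called there were 1 between fed genotypes, 2 and 1 in *hlh-30(lf)* at 15 and 3 hours of CeMM against starvation, 2 for the interaction with starvation and 3 between starved genotypes. Without the 3 libraries with yolk transcripts, *acs-2* at 15 hours against 3 hours in wild type was 2.60 and not called, and 1 member was called there, 1 for the interaction at 3 hours and 2 for wild-type CeMM 15 h against starvation.

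Leaving out 1 library at a time, *acs-2* ranged from -1.40 to -0.80 between fed and from -1.13 to -0.46 between starved genotypes, and from -1.74 to -1.07 for starvation in wild type. In *hlh-30(lf)* it ranged from 0.20 to 2.37 for 15 hours against 3 hours, from -0.87 to 1.3 against fed, from 0.23 to 2.40 against starvation, from -0.27 to 0.30 for 3 hours against starvation and from -1.36 to -0.79 for starvation. Its interaction with starvation ranged from -0.028 to 0.68. Genes called ranged from 790 to 1525 between fed genotypes and from 3295 to 5297 for 3 hours of CeMM in *hlh-30(lf)*. Members called ranged from 0 to 1 between fed genotypes, from 3 to 6 at 15 hours and from 1 to 3 at 3 hours against starvation in *hlh-30(lf)*, from 2 to 5 at 15 hours in wild type, from 2 to 4 for the interaction at 3 hours and from 1 to 4 for that with starvation. The cause of these changes was not tested.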
